A study of Mus musculus with 48 samples.

Results

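The comparison described here sets KAT6B knockout cells against the E14 mouse embryonic stem cell line they are labelled as sharing, at day 15 of neuronal differentiation, with 3 libraries in each group. Its members are 6 of the 48 RNA sequencing libraries of the study, chosen by genotype and day in the labels, and all genes of the deposited count table were considered. The KAT6B-/- KO libraries come from E14 cells that lack KAT6B per the labels, and the E14 libraries carry no knockout. The other day-15 groups, used only where stated, are a KAT6A-/- KO and a double knockout of KAT6A and KAT6B. All groups went through the same protocol: removal of LIF let embryoid bodies form, these received all-trans retinoic acid (10 µM, from day 4), and at day 8 the dissociated cells went onto a poly-D-lysine and laminin coat in neuronal medium with N2 and then B27 supplement. The study's design text gives 3 independent differentiation experiments per group. How many clones each knockout line stands for is not given in the sources used here, so a difference between the lines cannot be told apart from a difference between clones.

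KAT6B is a lysine acetyltransferase of the MYST family. It works in a complex with BRPF scaffold proteins, ING proteins and MEAF6, and its known substrate is the tail of histone H3. In humans, KAT6B mutations cause developmental syndromes with intellectual disability, and mice with reduced KAT6B have defects of the cerebral cortex. Retinoic acid differentiation passes through radial glia, the neural progenitors, in which Notch signalling from neighbouring cells holds back proneural transcription factors; progenitors that escape it turn on those factors and become neurons.

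Day-15 total counts were 35.07, 46.11 and 56.64 M (mega counts) in the KAT6B knockout and 39.16, 56.65 and 54.01 M in E14, within the series range of 22.5 to 72.23 M. At this depth counting error was small for all but the genes of few reads, and the spread between libraries, with a biological coefficient of variation of 37.8% at day 15, set the precision. The 3 KAT6B knockout libraries stood apart from each other. On the first principal component of day 15 (55.2% of the variance) they lay at -33.6, 89.5 and 33.4, against -77.8, -37.4 and -53.3 for E14. On the second (17%) replicate 1 lay alone at 77.1, with the other KAT6B knockout libraries at 9.73 and -14.6 and E14 between -25.4 and 4.47. Counts and medians of most gene lists are therefore also given without replicate 1 or replicate 2. The mitochondrial share of counts was 0.617%, 1.29% and 1.32% in the KAT6B knockout, against 1.33%, 1.24% and 1.55% in E14.

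Kat6b RNA did not mark the knockout. In CPM, the count relative to the library's total after scaling by trimmed means (TMM), it was at 126, 75.6 and 71.3 in the KAT6B knockout, against 89.5, 91.7 and 104 in E14. The ranges overlap, and the log2 fold change was -0.06 ± 0.21 (SE; adjusted p = 0.892, edgeR quasi-likelihood test with Benjamini-Hochberg adjustment). Without KAT6B knockout replicate 1 it was -0.37. Counts over the whole gene (chr14:21531502-21722546, plus strand, GRCm39) do not check a deletion of a part of it, and counts per gene do not show which part was changed. Kat6a, the paralogue, was at 178, 146 and 152 CPM in the KAT6B knockout, against 212, 168 and 193 CPM in E14. Its ranges overlap too, with a log2 fold change of -0.27 ± 0.14 (adjusted p = 0.302, edgeR).

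In the KAT6B knockout at day 15, the progenitor factor Sox2, the Notch feedback gene Nrarp, the neuronal factor Lmx1b and the progenitor gene Hopx were about 6- to 7-fold lower than in E14, with Kdm1a, Pde1b, Paqr8 and Zim1 also lower. Myrf, Kank2, Tgfbr2, Disp1, Smim1, Gstt3 and Angptl7 were higher. These were the 15 genes called at an adjusted p under 0.05 out of 20225 tested, or 0.0742% (7 higher, 0.0346%, and 8 lower, 0.0396%), and in all 15 the KAT6B knockout and E14 libraries did not overlap. The ranges of the 2 groups were also separate for 5875 of the genes tested (29%), 2798 of them higher (13.8%) and 3077 lower (15.2%) in the KAT6B knockout. With 3 libraries a group, an exact permutation test of 1 gene cannot give a two-sided p under 0.1. The count of calls depended on single libraries. It was 1946 without KAT6B knockout replicate 1, 0 of 20889 genes without replicate 2 (2894 at an unadjusted p under 0.05) and 3 without replicate 3, and it was 3, 2 and 3 without E14 replicates 1, 2 and 3. The 1946 included all 15. A term for the replicate number left 0 calls (3762 at an unadjusted p under 0.05), and so did a fit of only the 6 libraries compared (3898), so each of the 15 calls was lost in both. DESeq2 called 1839 genes (9.09%), 830 higher and 1009 lower.

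Among the genes that fell, Sox2 encodes the transcription factor that keeps neural progenitors and pluripotent cells undifferentiated. Its level was 14.1, 6.32 and 8.49 CPM in the KAT6B knockout, against 61.5, 66.5 and 56.7 CPM in E14. Every KAT6B knockout library was far below the lowest E14 library, and the means were 9.65 ± 4.04 and 61.6 ± 4.9 CPM (SD, n = 3 each). The log2 fold change was -2.67 ± 0.35 (adjusted p = 0.0294, edgeR). Sox2 (chr3:34704554-34706610, plus strand, GRCm39, as are all coordinates in the deposited table) lies inside the long noncoding gene Sox2ot on the same strand, so reads could be assigned to either. Sox2ot had a log2 fold change of -3.52 and was not called (adjusted p = 0.0827, edgeR).

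Lmx1b, a LIM-homeodomain factor of dopaminergic, serotonergic and dorsal spinal neurons, was at 2.17, 2.53 and 1.96 CPM in the KAT6B knockout, against 20.7, 12.9 and 13.8 CPM in E14. The knockout libraries were close together and far under E14, at a log2 fold change of -2.83 ± 0.34 (adjusted p = 0.0247, edgeR; chr2:33450977-33530620, minus strand). Nrarp, a small ankyrin-repeat protein that Notch signalling induces and that dampens Notch in turn, was at 2.87, 2.03 and 3.49 CPM in the KAT6B knockout, against 21.8, 13.3 and 15.9 CPM in E14. These groups were as clearly separate, with a log2 fold change of -2.60 ± 0.32 (adjusted p = 0.0247, edgeR; chr2:25070770-25073351, plus strand). Hopx, a homeodomain-like protein without DNA binding that marks outer radial glia in humans, was at 4.71, 4.96 and 5.62 CPM in the KAT6B knockout, against 41.4, 22.6 and 26.4 CPM in E14. E14 replicate 1 was the highest of the 6, and the log2 fold change was -2.56 ± 0.31 (adjusted p = 0.0247, edgeR; chr5:77234835-77262968, minus strand).

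Zim1, an imprinted zinc-finger gene expressed from the maternal allele beside Peg3, was at 3.32, 3.83 and 3.8 CPM in the KAT6B knockout, against 19.3, 10.5 and 28.3 CPM in E14. E14 varied nearly 3-fold for this gene, but no library of the KAT6B knockout came near it (log2 fold change -2.40 ± 0.34, adjusted p = 0.0407, edgeR; chr7:6674268-6699449, minus strand). Pde1b, a calmodulin-dependent phosphodiesterase of cyclic nucleotides, was at 12.5, 10.3 and 12.7 CPM in the KAT6B knockout, against 53.2, 37.3 and 36.8 CPM in E14. It shared the lowest adjusted p of the comparison with Kank2 (0.013, edgeR), at a log2 fold change of -1.84 ± 0.19 (chr15:103411461-103438479, plus strand). Paqr8, a membrane progestin receptor, was at 27.8, 19.9 and 27.8 CPM in the KAT6B knockout, against 69.7, 52.7 and 73.7 CPM in E14. The groups were apart by more than the spread of either (log2 fold change -1.38 ± 0.19, adjusted p = 0.035, edgeR; chr1:20960830-21009874, plus strand).

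Kdm1a, the demethylase LSD1 that removes methyl groups from lysine 4 of histone H3, was at 69.2, 68.9 and 69.5 CPM in the KAT6B knockout, against 130, 112 and 115 CPM in E14. The knockout libraries, which differed so much in the principal components, were within 1 CPM of each other for this gene, at 0.582 of the E14 mean. The log2 fold change was -0.78 ± 0.11 (adjusted p = 0.0335, edgeR; chr4:136277851-136330034, minus strand). Luzp1, which overlaps Kdm1a on the opposite strand, had a log2 fold change of -0.12 (adjusted p = 0.613, edgeR).

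Among the genes that rose, Myrf is the membrane-tethered transcription factor of myelin genes in oligodendrocytes, which is also found in other tissues. It was at 128, 119 and 83.2 CPM in the KAT6B knockout, against 22.2, 30.3 and 33.7 CPM in E14. All knockout libraries were far above the highest E14 library, the means were 110 ± 23.6 and 28.8 ± 5.88 CPM (SD, n = 3 each), and the log2 fold change was 1.93 ± 0.23 (adjusted p = 0.0247, edgeR; chr19:10185636-10218112, minus strand). Of the other oligodendrocyte lineage genes tested, described with the glial lists, 1 was above E14 and 5 were below.

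Kank2, an adhesion protein that links integrin-bound talin to microtubules, was at 180, 149 and 144 CPM in the KAT6B knockout, against 60.2, 69.1 and 73.5 CPM in E14. The separation was again wide, at a log2 fold change of 1.22 ± 0.12 (adjusted p = 0.013, edgeR; chr9:21678080-21710040, minus strand). Tgfbr2, the type II receptor that binds TGF-beta ligands, was at 234, 256 and 269 CPM in the KAT6B knockout, against 122, 134 and 151 CPM in E14. That is 1.86-fold, or 0.90 ± 0.12 on the log2 scale (adjusted p = 0.0335, edgeR; chr9:115913361-116004428, minus strand). Disp1, which releases lipid-modified Hedgehog from the cells that make it, was at 82.6, 71.7 and 60.5 CPM in the KAT6B knockout, against 29.2, 37.4 and 40.1 CPM in E14. Its groups did not overlap (log2 fold change 1.01 ± 0.14, adjusted p = 0.0407, edgeR; chr1:182867830-183003086, minus strand).

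Smim1, a small membrane protein that carries the Vel blood group in humans, was at 36.6, 31.6 and 34.1 CPM in the KAT6B knockout, against 12.4, 13.4 and 13.0 CPM in E14. Replicates of each group were close, and the log2 fold change was 1.40 ± 0.19 (adjusted p = 0.0335, edgeR; chr4:154104927-154110687, minus strand). It overlaps Lrrc47 on the opposite strand, for which the log2 fold change was 0.22 (adjusted p = 0.576, edgeR). Gstt3, a glutathione S-transferase, was at 19.8, 17 and 14.4 CPM in the KAT6B knockout, against 6.01, 8.23 and 6.78 CPM in E14. It was the called gene nearest the threshold (log2 fold change 1.28 ± 0.19, adjusted p = 0.0494, edgeR; chr10:75609949-75617248, minus strand), and it shares its strand with the overlapping Gm20441 (0.48, adjusted p = 0.193, edgeR).

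Angptl7, a secreted angiopoietin-like protein, had the largest fold change of the 15 and the lowest level, under the mean of 5 CPM asked of the other named genes. It was at 6.45, 4.1 and 1.82 CPM in the KAT6B knockout, against 0.0238, 0.0824 and 0.172 CPM in E14. At so few reads in E14, depth also limits its fold change. Not all E14 libraries reached the level of the expression filter, so the gene passed through libraries of other day-15 groups. This favours genes that are higher in the KAT6B knockout, and its place above E14 is thus not support. The knockout libraries differed over 3-fold among themselves but stayed above E14 (log2 fold change 5.39 ± 0.70, adjusted p = 0.0294, edgeR; chr4:148579640-148584917, minus strand). It lies within Mtor on the opposite strand, which held 114 times its counts, and the strand setting of the counting is not given in the sources used here. Mtor itself had a log2 fold change of -0.24 (adjusted p = 0.234, edgeR).

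**Figure D1:**
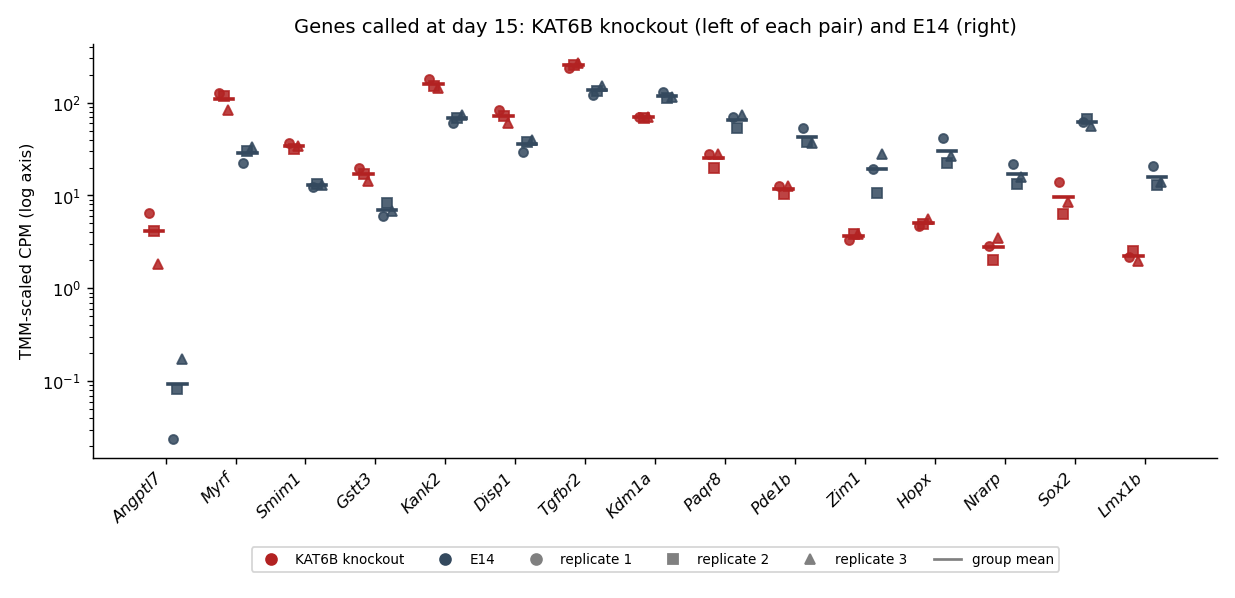
Level of the 15 called genes in each library (TMM-scaled CPM, log axis), with the KAT6B knockout libraries beside the E14 libraries at day 15. Each point is a library and each bar a group mean; for every gene the 3 KAT6B knockout points lie wholly on 1 side of the 3 E14 points, as for Sox2 at 6.32 to 14.1 CPM in the KAT6B knockout and 56.7 to 66.5 CPM in E14.

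Just past the threshold, 61 further genes shared an adjusted p of 0.0513 (edgeR), 42 of them higher and 19 lower in the KAT6B knockout, and none of these is called. Those with the smallest p on the higher side included the collagen chain Col5a2 at 405, 156 and 114 CPM in the KAT6B knockout, against 13.6, 32.9 and 32.7 CPM in E14 (3.09 ± 0.48, log2). Dlc1, a GTPase-activating protein, was at 315, 257 and 214 CPM in the KAT6B knockout, against 107, 132 and 127 CPM in E14. The mechanically gated channel Piezo1 was at 388, 404 and 355 CPM in the KAT6B knockout, against 123, 194 and 196 CPM in E14. Separate groups were a condition for naming genes here, so their separation is not a finding. Also named were Stat6, the transcription factor of interleukin-4 signalling (1.33 ± 0.20), Rhbdf2, which helps mature the protease ADAM17 (0.97 ± 0.15), and Tbc1d9b (0.71 ± 0.11). Stat6 overlaps Nab2 on the opposite strand, which held 1.93 times its counts and had a log2 fold change of 0.94 (adjusted p = 0.281, edgeR). Part of the Stat6 counts may thus depend on the strand setting, which is not given.

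On the lower side stood Dll1, the Notch ligand of nascent neurons, at 8.2, 1.98 and 4.51 CPM in the KAT6B knockout, against 38.1, 32.8 and 27.1 CPM in E14 (-2.74 ± 0.46). The actin nucleator Spire1 was at 31.3, 18.7 and 25.5 CPM in the KAT6B knockout, against 108, 64.6 and 73.6 CPM in E14. Also named, under the same condition of separate groups, were the nuclear pore protein Nup210 (-1.70 ± 0.29) and the centromere protein Cenpv (-1.28 ± 0.22).

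The day-15 cells were checked against the neuronal label with Tubb3, Map2, Dcx, Snap25 and Rbfox3. All 5 were present in every library, and KAT6B knockout replicate 2 was far below all others. Tubb3, the neuronal beta-tubulin, was at 223, 19.9 and 82 CPM in the KAT6B knockout, against 470, 269 and 336 CPM in E14. Rbfox3, the NeuN antigen of mature neurons, was at 25.8, 0.485 and 6.69 CPM in the KAT6B knockout, against 59.1, 31.5 and 32.4 CPM in E14. Neither was called (adjusted p = 0.279 and 0.348, edgeR), with SEs of 0.85 and 1.10 on the log2 scale. In these bulk samples, fewer cells of a type and less RNA per cell cannot be told apart.

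Summed over the pan-neuronal list, the level was 3165, 480 and 1350 CPM in the KAT6B knockout, against 6420, 3671 and 4440 CPM in E14. All 3 knockout sums were below E14, with replicate 1 nearest to it and replicate 2 farthest, and they spread over 6-fold. Of the 20 pan-neuronal genes, 13 were below E14 in every KAT6B knockout library, with a median log2 fold change of -1.66, beside 0.054 over all genes tested, and 0 were called by edgeR (5 were lower at an unadjusted p under 0.05, against 9.43% of all genes, and DESeq2 called 1, near the 4.99% of all genes). Without replicate 1, all 20 were below E14 (28.8% of all genes were then below), and without replicate 2, 13 (17.1% of all genes). Above E14 these shares of all genes were 30.4% and 16.6%. With all libraries, 15.2% of all genes were below E14 and 13.8% above. Counts in the lists that follow, with or without a replicate, are to be read beside these shares. The microtubule protein Mapt was at 434, 11.1 and 140 CPM in the KAT6B knockout, against 873, 475 and 532 CPM in E14 (-1.68 ± 1.04, adjusted p = 0.378, edgeR). The adhesion molecule Ncam1, at 643, 286 and 295 CPM in the KAT6B knockout, overlapped E14 at 704, 452 and 610 CPM.

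Progenitor genes were lower with less spread. In the radial glia list, 19 of 20 genes were tested and 15 lay below E14 in every KAT6B knockout library, against 15.2% of all genes; the median was -1.88. Sox2 was the 1 called member, and DESeq2 called 13, all lower, against 4.99% of all genes. Of the 19, 17 lay below E14 without replicate 1 and 15 without replicate 2, and edgeR called 14 lower without replicate 1 (5.05% of all genes) and 0 without replicate 2. The summed level was 2076, 1125 and 1307 CPM in the KAT6B knockout, against 2710, 2345 and 2664 CPM in E14, so the groups did not overlap. In this and the following lists, members other than those called and the 2 with the highest mean level were chosen after their values were seen. Hes5, a Notch-induced repressor that keeps progenitors from differentiating, was at 2.79, 0.441 and 1.04 CPM in the KAT6B knockout, against 30.4, 17.4 and 13.0 CPM in E14 (-3.84 ± 0.72, adjusted p = 0.0544, edgeR). The glial glutamate transporter Slc1a3 was at 44.6, 24 and 21.3 CPM in the KAT6B knockout, against 145, 112 and 118 CPM in E14 (-2.06 ± 0.46, adjusted p = 0.0711, edgeR). Both were clear of E14 and not called. The members that overlapped E14 were Hes1, Lhx2, Sox9 and Vim, of which the intermediate filament Vim was at 1351, 853 and 924 CPM in the KAT6B knockout, against 1107, 1055 and 1223 CPM in E14.

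Proneural and neuronal fate factors lay lower still. Of 21 genes, 19 were tested and 17 were below E14 in every KAT6B knockout library, with a median of -2.39. In 6 of the 19, said below to be not at the filter level, not all KAT6B knockout libraries reached the level of the expression filter. These genes needed libraries of other day-15 groups to pass, which favours genes that are lower in the KAT6B knockout. Their place below E14 is thus not support, and the count and median include them. In the same way, genes not at the filter level in E14 are favoured on the higher side. With no filter the median over all 21 was -2.17. By edgeR 0 were called and 16 were lower at an unadjusted p under 0.05 (9.43% of all genes), and DESeq2 called 15 (4.99% of all genes). Without replicate 1, 18 were below E14 and 12 were called lower (5.05% of all genes), and without replicate 2 these were 17 and 0. Ebf3, a helix-loop-helix factor of neuronal maturation, was at 37.1, 3.92 and 11.7 CPM in the KAT6B knockout, against 122, 60.4 and 55 CPM in E14. The zinc-finger factor Myt1l, which represses non-neuronal programmes, was at 35.5, 1.19 and 13.7 CPM in the KAT6B knockout, against 99.1, 59.8 and 59.6 CPM in E14. Replicate 1 was the nearest to E14 for both, and neither was called (adjusted p = 0.167 and 0.267, edgeR).

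**Figure D2:**
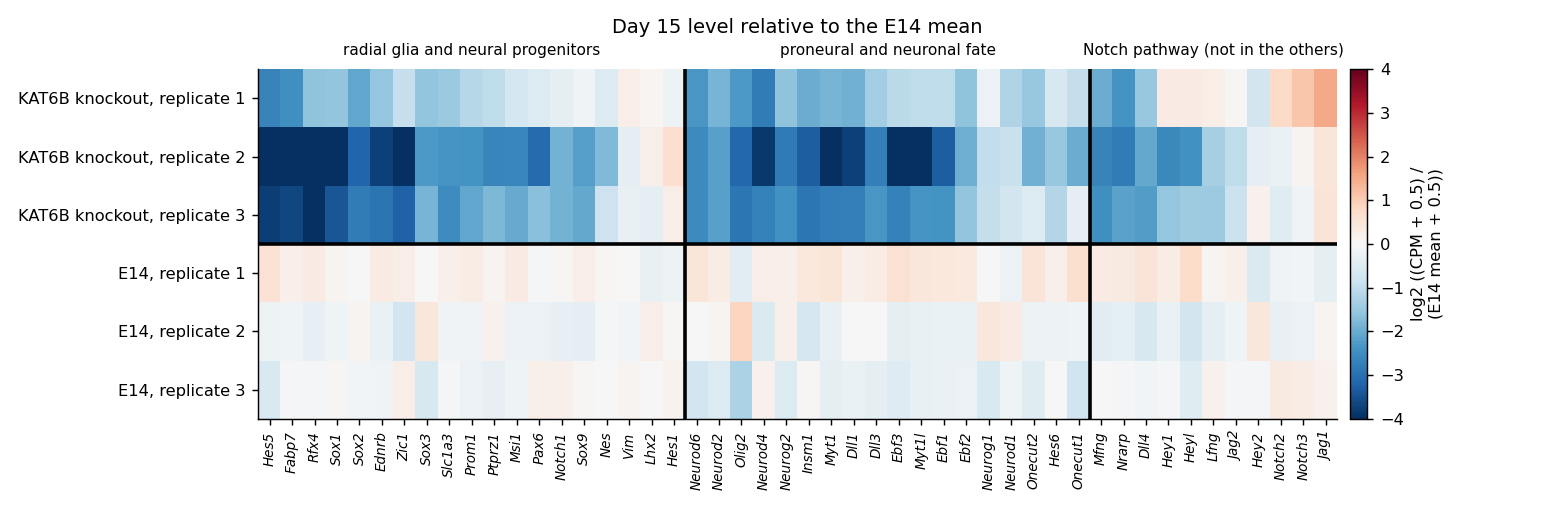
Level of radial glia, proneural and Notch pathway genes in each day-15 library relative to the E14 mean (colour, log2 of the ratio of CPM with 0.5 added), with the KAT6B knockout libraries above the E14 libraries. Most genes of the 3 KAT6B knockout libraries are below the E14 mean, most deeply in replicate 2, while Jag1 is above it in all 3.

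Notch pathway genes were divided. Of 16 genes tested, 7 were below E14 in every KAT6B knockout library (Dll1, Dll3, Dll4, Hes5, Mfng, Notch1 and Nrarp), 1 was above (Jag1), 8 overlapped E14, and the median was -0.81 (-1.998 without replicate 1 and -0.36 without replicate 2). Nrarp was the 1 called, and DESeq2 called 7, all lower, against 4.99% of all genes. Below E14 were 11 without replicate 1 and 7 without replicate 2. Dll1 and Dll3 are also in the proneural list, and Hes5 and Notch1 in the radial glia list, so these lists are not separate signals. Notch1, the receptor, was at 192, 68 and 68.1 CPM in the KAT6B knockout, against 263, 201 and 294 CPM in E14 (-1.21 ± 0.42, adjusted p = 0.16, edgeR). The ligand Jag1 was at 144, 70.2 and 72 CPM in the KAT6B knockout, against 39.2, 54.9 and 57 CPM in E14 (0.92 ± 0.31, adjusted p = 0.157, edgeR). Hes1, another Notch target with inputs besides Notch, was at 22.1, 40.8 and 30.6 CPM in the KAT6B knockout, against 22, 26.1 and 28 CPM in E14. Replicate 1 equalled the lowest E14 library, and Hes1 was not called (0.30 ± 0.22, adjusted p = 0.46, edgeR). The targets Hey1, Hey2 and Heyl, the ligand Jag2 and the receptor Notch3 overlapped E14 as well.

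The promoters of the Notch targets Hes5 and Nrarp are shown because these were the pathway's targets with separate groups; they were chosen after their values were seen. Both windows run from 250 bases before to 50 bases after the gene start and come from RefSeq on GRCm38.p6, a different build from that of the counts. Capitals mark GTGGGAA, or TTCCCAC on the other strand, the core letters recognised by RBPJ, the DNA-binding partner of Notch.
Hes5, chr4:154960673-154960972, plus strand: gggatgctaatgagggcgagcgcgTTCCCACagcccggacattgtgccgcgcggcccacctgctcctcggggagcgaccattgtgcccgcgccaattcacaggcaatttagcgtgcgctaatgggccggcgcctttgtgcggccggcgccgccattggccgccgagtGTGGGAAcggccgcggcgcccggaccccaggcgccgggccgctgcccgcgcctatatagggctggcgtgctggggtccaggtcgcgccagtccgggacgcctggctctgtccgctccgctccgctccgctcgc
Nrarp, chr2:25180508-25180807, plus strand: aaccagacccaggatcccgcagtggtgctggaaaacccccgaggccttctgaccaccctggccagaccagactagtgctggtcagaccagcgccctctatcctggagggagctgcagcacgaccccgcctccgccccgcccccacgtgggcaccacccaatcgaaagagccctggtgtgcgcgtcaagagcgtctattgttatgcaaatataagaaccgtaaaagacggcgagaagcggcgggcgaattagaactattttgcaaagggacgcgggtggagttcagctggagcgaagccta
The Hes5 window holds the letters 2 times, on opposite strands, and the Nrarp window does not hold them. Of the 16 list genes, 12 were matched to 13 windows, and 3 windows held the letters on either strand (Hes5, Hey2 and Lfng; 23.1%), beside 2096 of all 32817 promoter windows (6.39%). Of those 3 genes, Hes5 was below E14 in every KAT6B knockout library and Hey2 and Lfng overlapped it.

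Synaptic and transmitter genes had negative medians and few calls. Their 4 lists had medians from -1.36 to -1.23, and in the summed level of each KAT6B knockout replicate 2 was the lowest of the 6 libraries. By edgeR 0 members were called in any of the 4, with 2 presynaptic, 5 postsynaptic, 4 glutamatergic and 3 GABAergic genes lower at an unadjusted p under 0.05 (9.43% of all genes), where DESeq2 called 0, 4, 1 and 2 (4.99% of all genes). The presynaptic counts and DESeq2's glutamatergic count were thus near or under the shares of all genes. Of 20 presynaptic genes, 8 were below E14 in every KAT6B knockout library (median -1.36), 20 without replicate 1 and 8 without replicate 2. The vesicle SNARE Vamp2 was at 167, 68.4 and 78.8 CPM in the KAT6B knockout, against 229, 132 and 160 CPM in E14. Its groups overlapped through replicate 1 alone. Of 20 postsynaptic genes 10 were below E14 (median -1.34), 19 without replicate 1 and 10 without replicate 2; the inhibitory adhesion protein Nlgn2 overlapped it, at 403, 117 and 147 CPM in the KAT6B knockout and 365, 218 and 253 CPM in E14, as did Nrxn2 (-1.39).

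Of 17 glutamatergic genes, 4 of them not at the filter level in the KAT6B knockout, 8 were below E14 (median -1.34), 14 without replicate 1 and 8 without replicate 2. The NMDA receptor subunit Grin2b was at 67.2, 1.9 and 33.4 CPM in the KAT6B knockout, against 244, 134 and 155 CPM in E14 (-2.38 ± 1.10, adjusted p = 0.26, edgeR), and the AMPA receptor subunit Gria3 overlapped E14 with a positive value (0.59). Of 18 GABAergic genes, 6 were not at the filter level in the KAT6B knockout and so needed libraries of other groups to pass. Below E14 were 8 (median -1.23), 13 without replicate 1 and 8 without replicate 2. Gad1, which makes GABA, was at 31.3, 1.15 and 16.2 CPM in the KAT6B knockout, against 53.8, 27.1 and 36.5 CPM in E14. Grin2b and Gad1 were both lowest in replicate 2.

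Voltage-gated channels had 13 of 22 genes below E14 and 1 above (median -1.31), with 2 of the 22 not at the filter level in the KAT6B knockout. Below E14 were 20 without replicate 1 and 13 without replicate 2. The presynaptic calcium channel Cacna1b was at 53.4, 4.16 and 29.9 CPM in the KAT6B knockout, against 128, 78.2 and 85.5 CPM in E14. Its groups were separate and it was not called.

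Regional identity genes differed unevenly. Among hindbrain and spinal interneuron factors, 18 of 20 were tested, 9 of them not at the filter level in the KAT6B knockout, and 10 were below E14 (median -1.58), 11 without replicate 1 and 10 without replicate 2. Pou4f1, a POU factor of sensory and dorsal neurons, was at 6.34, 1.41 and 3.18 CPM in the KAT6B knockout, against 48.7, 29.4 and 35.8 CPM in E14 (-3.38 ± 0.61, adjusted p = 0.052, edgeR). Lhx1, a LIM-homeodomain factor of interneurons, was at 20.3, 0.705 and 7.17 CPM in the KAT6B knockout, against 41.7, 25.8 and 28.8 CPM in E14. Both were separate from E14. The motor neuron and monoaminergic list held the called Lmx1b, but its median was 0.23 and 3 of 13 tested genes were below E14 and 1 above, 5 of the 13 not being at the filter level in the KAT6B knockout. Without replicate 1 the median was 0.027, with 5 below and 4 above, and without replicate 3 it was -0.24. The gene above was Ddc, the decarboxylase that makes dopamine and serotonin, at 12.5, 22.6 and 23.5 CPM in the KAT6B knockout, against 8.35, 5 and 7.4 CPM in E14 (1.50 ± 0.32, adjusted p = 0.0653, edgeR).

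Of forebrain and midbrain factors, 12 of 18 were tested, 4 were below E14 and 1 above (median -0.64); without replicate 1 these were 7 and 3, and without replicate 2, 5 and 1. Reln, the secreted protein that guides migrating cortical neurons, was at 46.7, 3.55 and 18 CPM in the KAT6B knockout, against 224, 120 and 151 CPM in E14 (-2.86 ± 0.81, adjusted p = 0.112, edgeR). Its groups were separate, with replicate 1 nearest E14.

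Hox genes, which set position along the hindbrain and spinal cord and respond to retinoic acid, had 8 of 29 tested members below E14 (Hoxa6, Hoxa7, Hoxb7, Hoxb8, Hoxb9, Hoxd3, Hoxd4 and Hoxd8), 0 above and a median of -1.06; 5 of the 29 were not at the filter level in the KAT6B knockout. Hoxb8 was at 71.8, 4.61 and 11.9 CPM in the KAT6B knockout, against 194, 82.6 and 113 CPM in E14 (-2.14 ± 0.87, adjusted p = 0.211, edgeR), and Hoxb9 was at 41.2, 13.6 and 25.9 CPM in the KAT6B knockout, against 140, 53.9 and 103 CPM in E14 (-1.88 ± 0.57, adjusted p = 0.128, edgeR). Groups were separate in both, with replicate 1 nearest E14. With all libraries edgeR called 0 Hox genes. At an unadjusted p under 0.05 (edgeR), 8 were lower, and DESeq2 called 5 lower, beside 9.43% and 4.99% of all genes. Without replicate 1, 22 of the 29 were below E14 and 13 were called lower, beside 28.8% and 5.05% of all genes. Without replicate 2 these counts were 9 and 0.

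Astrocyte genes were divided. Of 13 tested, 2 of them not at the filter level in the KAT6B knockout, 6 were below E14 in every KAT6B knockout library (among them Aldoc and Gfap), 1 was above (Apoe) and 6 overlapped it (median -1.80). By edgeR 0 were called (6 were lower at an unadjusted p under 0.05, and DESeq2 called 6, beside 9.43% and 4.99% of all genes). Below E14 were 9 without replicate 1 and 6 without replicate 2. Gfap, the astrocyte intermediate filament, was at 9.3, 0.022 and 0.691 CPM in the KAT6B knockout, against 183, 46.7 and 151 CPM in E14 (-5.27 ± 1.73, adjusted p = 0.148, edgeR). The glycolytic enzyme Aldoc was tighter, at 29.1, 9.45 and 19 CPM in the KAT6B knockout, against 114, 84 and 73.5 CPM in E14 (-2.23 ± 0.46, adjusted p = 0.0641, edgeR). Both lay wholly below E14. Clu and Glul, with the highest levels of this list, overlapped E14 (-0.33 and -0.21), as did Gja1 and Sparcl1 (0.14 and -1.80).

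Of 10 tested oligodendrocyte lineage genes, 4 were not at the filter level in the KAT6B knockout. Below E14 were 5 and above it 1 (median -1.12), with 6 and 2 without replicate 1 and 5 and 1 without replicate 2. Cnp, a myelin enzyme, was the one above, at 33.2, 32.9 and 36.1 CPM in the KAT6B knockout, against 30.1, 27.5 and 27.3 CPM in E14 (0.27, adjusted p = 0.242, edgeR), and the growth factor receptor Pdgfra overlapped E14. The lineage factor Olig2 was at 0.394, 0 and 0.0909 CPM in the KAT6B knockout, against 2.81, 7.54 and 1.34 CPM in E14. So Myrf was high in libraries where Olig2 was near 0. Neural crest and peripheral neuron genes had 6 of 15 tested members below E14 (median -0.98), 11 without replicate 1 and 6 without replicate 2, with 4 of the 15 not at the filter level in the KAT6B knockout; the neurotrophin receptor Ntrk3, at 254, 29.6 and 35.8 CPM in the KAT6B knockout, was above all E14 libraries (178, 102 and 131 CPM) in replicate 1 and below them in the others.

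Clustered protocadherins, which give neurons a surface identity, had 11 of 20 members below E14 (median -1.47), 20 without replicate 1 and 11 without replicate 2. The gamma members Pcdhgc3 and Pcdhgc4, with the highest levels, overlapped E14 (0.04 and -0.15). Genes of the alpha cluster share 3′ exons, as do those of the gamma cluster, so their counts are uncertain. The listed alpha members all lay from -1.97 to -1.82 and the gamma members from -0.15 to 0.04. Members of each of these clusters are therefore not independent, and the counts of members overstate the number of separate signals.

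**Figure D3:**
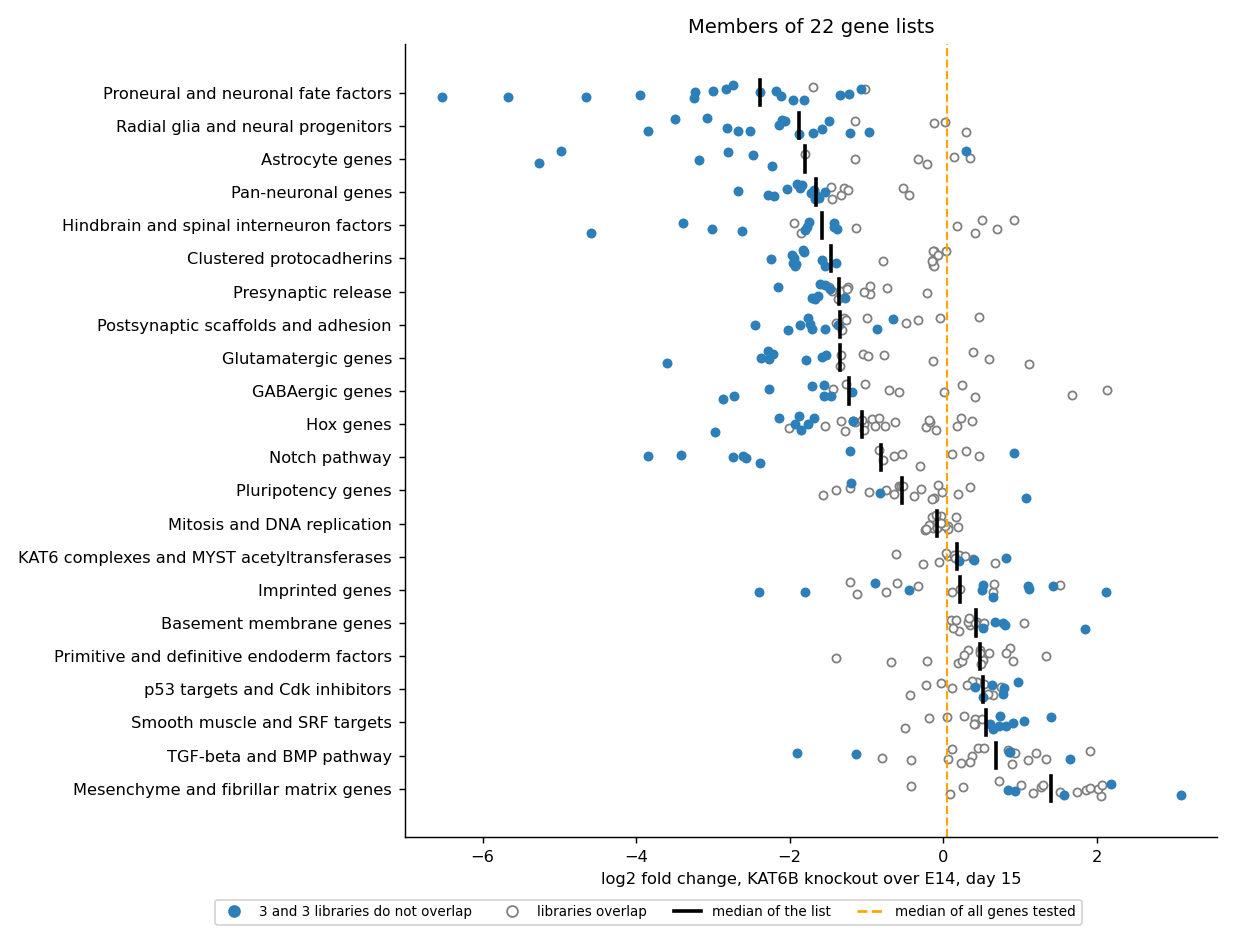
Log2 fold change (KAT6B knockout over E14, day 15) of each tested member of 22 gene lists; each point is a gene, the bar is the list median, and filled points are genes whose KAT6B knockout and E14 libraries do not overlap. Neural lists lie mostly left of 0 (radial glia median -1.88, proneural -2.39), and mesenchyme (1.41), smooth muscle (0.55) and p53 target (0.52) lists mostly right.

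Some genes of connective tissue were above E14, and most overlapped it. Of the 20 mesenchyme and fibrillar matrix genes, 5 were above E14 in every KAT6B knockout library (Col3a1, Col5a2, Fbn1, Fn1 and Pdgfrb), beside 13.8% of all genes, 0 were below and 15 overlapped. Without replicate 1, 6 were above (30%, beside 30.4% of all genes) and 2 below, and without replicate 2, 6 were above. The median was 1.41, or 0.49 without replicate 1 and 1.71 without replicate 2. By edgeR 0 were called and 6 were higher at an unadjusted p under 0.05 (10.6% of all genes), and DESeq2 called 4 (4.1% of all genes were called higher). Col1a1, the main collagen chain of bone and skin, was at 8303, 1741 and 1403 CPM in the KAT6B knockout, against 858, 414 and 1488 CPM in E14 (2.05 ± 0.69, adjusted p = 0.152, edgeR). Replicate 1 was over 4 times any other library, and replicate 3 was below the highest E14 library. Fn1, the matrix protein fibronectin, was even across the KAT6B knockout, at 2598, 2565 and 3349 CPM, against 985, 1753 and 1713 CPM in E14. The matrix glycoprotein Sparc ran the other way, at 3330, 10040 and 10460 CPM in the KAT6B knockout and 3873, 6586 and 4000 CPM in E14. Summed over the list, the level was 28960, 18930 and 19040 CPM in the KAT6B knockout, against 7870, 10150 and 11010 CPM in E14, without overlap. Single abundant genes made up much of these sums. In replicate 1 Col1a1 was 8303 CPM, and in replicates 2 and 3 Sparc was 10040 and 10460 CPM. Each of these 2 genes overlapped E14, so the separate sums do not stand for the whole list. Of the 20 genes, 1 was not at the filter level in E14.

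Of 16 contractile and actin-linked genes, many of them targets of the transcription factor SRF, 8 were above E14 in every KAT6B knockout library (Cnn2, Des, Lmod1, Smtn, Tagln, Tpm1, Tpm2 and Vcl), 0 were below and 8 overlapped it. Without replicate 1 there were 8 (30.4% of all genes were then above) and without replicate 2, 11 (16.6%). The median was 0.55, and edgeR called 0 (5 were higher at an unadjusted p under 0.05, and DESeq2 called 1, beside 10.6% and 4.1% of all genes). Ccn2 and Myh11 had negative log2 fold changes (-0.18 and -0.49). Tropomyosin, Tpm1, was at 936, 821 and 866 CPM in the KAT6B knockout, against 349, 550 and 690 CPM in E14 (0.72 ± 0.27, adjusted p = 0.184, edgeR), and Smtn, smoothelin, was at 100, 86.8 and 84.1 CPM in the KAT6B knockout, against 45.6, 52.8 and 54.9 CPM in E14 (0.82 ± 0.17, adjusted p = 0.0641, edgeR). Knockout replicates lay close together in both. The actin crosslinker Flna, the highest of the list, overlapped E14 (0.39). The summed level was 5517, 5490 and 5985 CPM in the KAT6B knockout, against 3483, 4318 and 4777 CPM in E14.

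Vcl, vinculin of the adhesion sites where Kank2 also acts, was at 565, 465 and 498 CPM in the KAT6B knockout, against 266, 345 and 392 CPM in E14 (0.61 ± 0.23, adjusted p = 0.189, edgeR). Its promoter window is shown, as the list member with the highest level of those that held the binding letters of SRF and had separate groups, a choice made after the values were seen. Capitals mark the CArG box.
Vcl, chr14:20929148-20929447, plus strand, RefSeq GRCm38.p6: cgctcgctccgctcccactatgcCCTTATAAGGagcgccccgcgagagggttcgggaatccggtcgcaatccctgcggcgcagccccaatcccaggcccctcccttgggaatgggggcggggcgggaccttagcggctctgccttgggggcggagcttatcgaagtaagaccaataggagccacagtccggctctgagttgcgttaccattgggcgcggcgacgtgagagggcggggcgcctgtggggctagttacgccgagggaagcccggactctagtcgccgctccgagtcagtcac
A CArG box, searched on both strands, was in 3 of the 12 windows matched to the list (Cnn2, Myl9 and Vcl; 25%) and in 535 of all 32817 windows (1.63%). The box reads the same on both strands in this window.

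Some basement membrane, endoderm and endothelial genes split the KAT6B knockout libraries, with replicate 1 below E14 and replicates 2 and 3 above. Col4a1, the main collagen of basement membranes, was at 2811, 16570 and 17740 CPM in the KAT6B knockout, against 7518, 13800 and 7919 CPM in E14. Lama1, the laminin chain of early basement membranes, was at 1710, 13520 and 14640 CPM in the KAT6B knockout, against 5396, 10680 and 6280 CPM in E14. Neither was called. Of 16 basement membrane genes 5 were nevertheless above E14 in all 3 KAT6B knockout libraries, 12 without replicate 1 and 6 without replicate 2. Of these 16, 1 was not at the filter level in E14. Of 16 endoderm genes none was above or below E14 in all 3, but 12 were above without replicate 1, when 5 were called higher (4.28% of all genes), and 0 without replicate 2. Sox17, a factor of endoderm and endothelium, was at 63.1, 367 and 293 CPM in the KAT6B knockout, against 159, 204 and 150 CPM in E14, and the endocytic receptor Lrp2 was at 225, 853 and 757 CPM in the KAT6B knockout, against 577, 457 and 490 CPM in E14. Flt1, a VEGF receptor, was at 105, 613 and 672 CPM in the KAT6B knockout, against 369, 336 and 316 CPM in E14. In each the knockout libraries lay on both sides of E14.

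The same split was seen in the sums of other lists. The endoderm sum was 930, 4206 and 3645 CPM in the KAT6B knockout and 1965, 2388 and 1846 CPM in E14. The endothelial sum was 282, 1216 and 1239 CPM in the KAT6B knockout and 616, 730 and 572 CPM in E14, and the epithelial sum was 310, 1273 and 1276 CPM in the KAT6B knockout and 594, 870 and 562 CPM in E14. These lists thus lay on opposite sides of E14 in replicate 1 and in replicates 2 and 3, while the pan-neuronal, proneural and radial glia sums were below E14 in all 3. The part of these cell types in the neural result was not tested. The keratin Krt8 was at 82.7, 446 and 458 CPM in the KAT6B knockout, against 169, 302 and 180 CPM in E14, and Krt18 had a log2 fold change of 0.61.

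Sums for other cell types were low and overlapped between the groups. Summed blood and macrophage genes (4 of 16 tested) were at 77.3, 114 and 118 CPM in the KAT6B knockout and 92.5, 78.4 and 132 CPM in E14, and choroid plexus and ependymal genes at 28.1, 58.4 and 64.8 CPM in the KAT6B knockout and 63.8, 69.8 and 50.5 CPM in E14. Yolk sac and liver proteins were at 5.49, 10.9 and 12 CPM in the KAT6B knockout and 6.58, 8.69 and 5.66 CPM in E14. Cardiac and skeletal muscle genes were at 126, 177 and 185 CPM in the KAT6B knockout and 145, 164 and 111 CPM in E14. All 4 sums overlapped. Trophoblast genes summed to 25, 51.6 and 64.4 CPM in the KAT6B knockout and 7.73, 40.5 and 18.8 CPM in E14, also overlapping, with the factor Hand1 at 1.38, 21.4 and 25.1 CPM in the KAT6B knockout and 0.572, 11.7 and 1.85 CPM in E14. In these 5 lists (4, 8, 7, 16 and 11 genes tested) edgeR called 0 members. At an unadjusted p under 0.05 (edgeR), 3 were higher and 3 lower, beside 10.6% and 9.43% of all genes. DESeq2 called 2, beside 9.09% of all genes. Hand2 alone was above E14 in every library, and Ttn, Apob and Foxj1 were below. The medians of the 5 lists, in the same order, were 0.45, -0.16, 0.48, 0.42 and 0.84. In the trophoblast list 10 of 11 values were positive. Of these 11, 5 were above E14 without replicate 1 (45.5%, beside 30.4% of all genes) and 2 without replicate 2 (18.2%, beside 16.6%). Not at the filter level in E14 were 3 yolk sac, 3 muscle and 4 trophoblast genes, and in the KAT6B knockout 3, 2 and 3. With the highest levels in their lists, Cd68, Runx1, Ryr2, Ttn, Clic6, Aqp1, Ttr, Rbp4 and Gata3 had log2 fold changes of 1.16, -0.13, 0.21, -0.91, -0.18, -0.13, 0.95, 0.48 and 0.84.

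**Figure D4:**
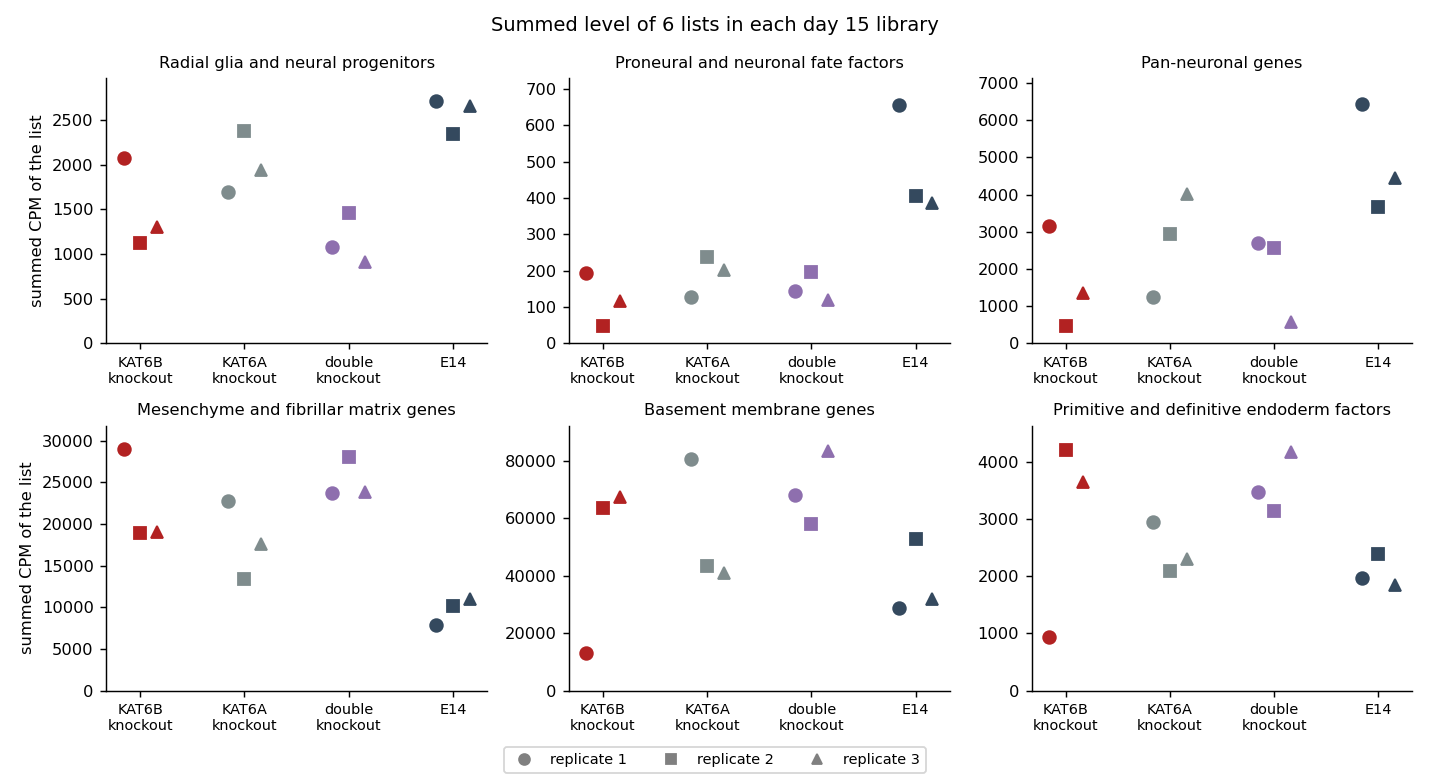
Summed level of 6 gene lists (CPM) in each day-15 library, in the order KAT6B knockout, KAT6A knockout, double knockout, E14; each point is a library and its shape the replicate number. The pan-neuronal sums of the KAT6B knockout run from 480 to 3165 CPM, all below the E14 sums of 3671 to 6420 CPM, while the endoderm sums of the KAT6B knockout (930 to 4206 CPM) lie on both sides of E14 (1846 to 2388 CPM).

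In the TGF-beta and BMP, Wnt, retinoic acid, hedgehog and guidance lists (22, 19, 16, 16 and 24 genes tested), edgeR called 0 members. At an unadjusted p under 0.05 (edgeR), 23 were higher and 13 lower, beside 10.6% and 9.43% of all genes. DESeq2 called 13 higher and 12 lower, beside 4.1% and 4.99% of all genes. The TGF-beta and BMP list, which did not hold Tgfbr2, had 3 of 22 genes above E14 (Bmp4, Smad7 and Tgfb1), 2 below (Bmp7 and Id4) and a median of 0.69; over all genes 13.8% were above and 15.2% below. Without replicate 1 its median was 0.017, with 7 above and 6 below, and without replicate 2 it was 0.65, with 3 and 2. Bmp4 was at 51.6, 43.5 and 41.8 CPM in the KAT6B knockout, against 7.87, 12 and 23.6 CPM in E14 (1.66 ± 0.44, adjusted p = 0.0996, edgeR), and the inhibitory Smad7 had a log2 fold change of 0.87 ± 0.23 and was not called. In the Wnt list 19 of 20 genes were tested, 3 of them not at the filter level in the KAT6B knockout and 2 not in E14. Its median of 0.40 turned to -0.96 without replicate 1, with 4 above E14 and 7 below, and was 0.66 without replicate 2. With all libraries, the secreted modulators Rspo1, Rspo3 and Sfrp2 were above E14 and the ligands Wnt7a and Wnt7b below. Rspo3, which strengthens Wnt signals, was at 56.2, 26.2 and 14.7 CPM in the KAT6B knockout, against 2.74, 2.34 and 5.25 CPM in E14 (3.23 ± 0.68, adjusted p = 0.0641, edgeR). Wnt7a, a ligand of neural progenitors, was at 0.761, 1.17 and 1.96 CPM in the KAT6B knockout, against 20.1, 15.3 and 9.4 CPM in E14 (-3.51 ± 0.61, adjusted p = 0.0513, edgeR). The groups were far apart for both, and Sfrp1 and Wnt5a overlapped E14 (1.30 and 0.48).

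The retinoic acid list had 5 of 16 tested genes above E14 (Aldh1a1, Cyp26b1, Dhrs3, Rara and Rxra), 2 below (Crabp1 and Rxrg) and a median of 0.60. The median was 0.16 without replicate 1, with 6 above and 4 below, and 0.75 without replicate 2. Aldh1a1, which makes retinoic acid, was at 8.28, 15.4 and 11 CPM in the KAT6B knockout, against 2.29, 2.88 and 4.33 CPM in E14 (1.87 ± 0.39, adjusted p = 0.0641, edgeR), and the receptor Rara was at 194, 91.3 and 85.6 CPM in the KAT6B knockout, against 71.4, 62.7 and 77.6 CPM in E14 (0.81, adjusted p = 0.169, edgeR). Stra6, which takes up retinol, overlapped E14. The hedgehog list, without Disp1, had 0 of 16 genes above E14 and 3 below, with 3 not at the filter level in the KAT6B knockout. The count below was near the 15.2% of all genes. Its median was -0.06, or -0.62 without replicate 1 (1 above and 5 below), -0.10 without replicate 2 and 0.18 without replicate 3; its co-receptors Cdon and Boc overlapped E14 (1.44 and 0.85).

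Guidance and migration genes went both ways, with 7 of 24 above E14, 7 below and a median of -0.57; 13 were below without replicate 1 (median -0.99) and 7 without replicate 2 (-0.31). The chemokine Cxcl12 was at 455, 98.3 and 69.9 CPM in the KAT6B knockout, against 8.73, 9.78 and 22.7 CPM in E14 (3.92 ± 0.80, adjusted p = 0.0641, edgeR). Its receptor Cxcr4 was at 5.27, 0.683 and 1.8 CPM in the KAT6B knockout, against 27.9, 15.7 and 23.8 CPM in E14 (-3.13 ± 0.73, adjusted p = 0.0786, edgeR). Ligand and receptor were thus separate from E14 on opposite sides. So were the ligand Slit3, at 612, 233 and 134 CPM in the KAT6B knockout and 58.5, 44.1 and 75.1 CPM in E14, and its receptor Robo2, at 78.7, 123 and 122 CPM in the KAT6B knockout and 285, 190 and 184 CPM in E14. These 4 genes were chosen after their values were seen and none was called. Of the same families, the ligands Slit1 and Slit2 (-1.85 and 1.23) and the receptor Robo1 (-0.28) overlapped E14, and Robo3 (-2.52) was below it. The pairs shown thus do not stand for the whole list.

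Imprinted genes held the called Zim1, and 7 of 21 were above E14 and 4 below (median 0.22), beside 13.8% and 15.2% of all genes. The count below was near its share. Without replicate 1 the median turned to -0.30, with 8 above and 10 below, and without replicate 2 it was 0.42, with 7 and 4. At the Igf2r locus, the noncoding Airn, whose paternal transcription silences Igf2r, was at 108, 99.4 and 95.1 CPM in the KAT6B knockout, against 33.5, 34.1 and 44.3 CPM in E14 (1.44 ± 0.24, adjusted p = 0.0513, edgeR). Igf2r was at 46.3, 56.8 and 110 CPM in the KAT6B knockout, against 208, 272 and 266 CPM in E14 (-1.80 ± 0.38, adjusted p = 0.0653, edgeR). Both were separate from E14, in opposite directions, and neither was called. Airn overlaps the start of Igf2r on the opposite strand, so part of their counts depends on the strand setting. At day 6 the values already differed in the same directions, with Airn at 80.1, 86.1 and 87.3 CPM in the KAT6B knockout and 41.3, 32 and 54.5 CPM in E14. Igf2r was then at 90, 122 and 136 CPM in the KAT6B knockout and 190, 277 and 236 CPM in E14. H19, the maternally expressed noncoding RNA of mesenchyme and endoderm, was at 9047, 2373 and 1763 CPM in the KAT6B knockout, against 769, 852 and 1412 CPM in E14 (2.12 ± 0.76, adjusted p = 0.172, edgeR).

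Most chromatin complex genes differed by small amounts. Among members separate from E14, the largest changes were in Phf19 (-1.02) and Jade2 (0.82), neither of them called. Of the 14 genes of KAT6 complexes and MYST enzymes, 3 were above E14 in every library (Brd1, Brpf3 and Jade2), 0 were below and the median was 0.18; without replicate 1, 7 were above and 3 below. The scaffold Brpf3 was at 77.5, 64.2 and 59.1 CPM in the KAT6B knockout, against 48.1, 56 and 48.2 CPM in E14, and Jade1, a scaffold of the related KAT7 complex, was at 136, 626 and 546 CPM in the KAT6B knockout, against 226, 333 and 261 CPM in E14. Replicate 1 was below E14 for Jade1. Polycomb and MLL genes had 4 of 26 above E14 and 5 below (median 0.22), near the 13.8% and 15.2% of all genes. Without replicate 1 these were 11 and 6 (median 0.077). The Polycomb methyltransferase Ezh2 was at 35.8, 47.7 and 45.9 CPM in the KAT6B knockout, against 64.3, 59.8 and 57.9 CPM in E14 (-0.49 ± 0.16, adjusted p = 0.15, edgeR), and the H3 lysine 4 methyltransferase Kmt2d was at 619, 598 and 569 CPM in the KAT6B knockout, against 481, 498 and 445 CPM in E14 (0.33 ± 0.14, adjusted p = 0.224, edgeR). Kmt2c overlapped E14 (0.35).

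Of p53 targets and Cdk inhibitors, 6 of 17 were above E14 and 0 below, with a median of 0.52; 11 were above and 3 below without replicate 1, and 6 and 0 without replicate 2. Cdkn1a, the inhibitor p21, was at 429, 461 and 417 CPM in the KAT6B knockout, against 240, 263 and 342 CPM in E14 (0.63 ± 0.19, adjusted p = 0.125, edgeR), and Cdkn2a was at 66.6, 56.7 and 45.7 CPM in the KAT6B knockout, against 19.7, 29.1 and 37.1 CPM in E14 (0.98 ± 0.31, adjusted p = 0.138, edgeR). Ccng1 overlapped E14 (0.65). All 18 mitosis and replication genes overlapped E14, with a median of -0.08 (0.11 without replicate 1 and -0.22 without replicate 2), among them Mki67 (204, 342 and 295 CPM in the KAT6B knockout, 254, 306 and 328 CPM in E14) and Top2a (-0.03). Of 20 pluripotency genes, 1 was above E14 and 2 below (median -0.54, or -0.24 without replicate 1). Klf4 was at 218, 396 and 317 CPM in the KAT6B knockout, against 146, 167 and 126 CPM in E14 (1.08 ± 0.32, adjusted p = 0.12, edgeR). Pou5f1, the pluripotency factor OCT4, was low in both groups, at 10.9, 19.3 and 8.38 CPM in the KAT6B knockout and 8.35, 44.8 and 22.4 CPM in E14, and Klf5 was even (-0.02).

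In the remaining lists edgeR called 0 genes. At an unadjusted p under 0.05 (edgeR), 6 were higher and 3 lower in all, beside 10.6% and 9.43% of all genes. DESeq2 called 2, beside 9.09% of all genes. Germline genes had 0 of 12 separate from E14 (Rec8 0.37, Dnd1 0.39). Interferon-stimulated genes had 1 of 16 above and 1 below (median 0.30, or -0.097 without replicate 3; Ifitm3 0.64, Stat2 0.28), and immediate early genes 1 of 15 above (median 0.47, or -0.024 without replicate 2; Fosl2 0.85, Jun 0.16). Cholesterol synthesis genes had 2 of 18 above E14 and 0 below (median -0.08; Hmgcs1 -0.52). Without replicate 1, 12 of these 18 (66.7%) were below E14, beside 28.8% of all genes, and the median was -0.39; without replicate 2 it was 0.063, with 2 above and 0 below. Hypoxia and glycolysis genes had 3 of 15 on each side (median 0.15; P4ha1 0.65, Aldoa 0.20), and 7 above and 3 below without replicate 1. Of 7 structural noncoding RNAs, 2 were above E14 and 1 below, with Malat1 at 6692, 6381 and 6982 CPM in the KAT6B knockout and 5409, 6270 and 5612 CPM in E14, and Rpph1 at 0.27 on the log2 scale.

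The KAT6B knockout was then set against the other knockouts of day 15. In the same fit edgeR called 0 of 20225 genes against the KAT6A knockout (782, or 3.87%, at an unadjusted p under 0.05; DESeq2 called 33, or 0.163%) and 0 against the double knockout (945, or 4.67%; DESeq2 called 77, or 0.381%). The E14 libraries are shared by each knockout's comparison with E14, so values are set side by side. Sox2 was at 14.1, 6.32 and 8.49 CPM in the KAT6B knockout, 17.8, 29 and 19.5 CPM in the KAT6A knockout and 4.83, 10 and 7.54 CPM in the double knockout. The KAT6B knockout was thus below the KAT6A knockout in every library and overlapped the double knockout, as it also did for Nrarp and Lmx1b. Nrarp was at 2.87, 2.03 and 3.49 CPM in the KAT6B knockout, 4.88, 6.38 and 5.29 CPM in the KAT6A knockout and 3.78, 3.09 and 1.91 CPM in the double knockout. Lmx1b was at 2.17, 2.53 and 1.96 CPM in the KAT6B knockout, 3.64, 7.34 and 3.22 CPM in the KAT6A knockout and 2.22, 2.53 and 1.98 CPM in the double knockout.

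Of the 15 genes, Kdm1a had the lowest adjusted p against the KAT6A knockout, at 69.2, 68.9 and 69.5 CPM in the KAT6B knockout and 135, 120 and 138 CPM in the KAT6A knockout (-0.92 ± 0.11, adjusted p = 0.0733, edgeR). The double knockout was at 72.9, 77.5 and 66.1 CPM, which the KAT6B knockout overlapped (-0.06). Myrf was at 128, 119 and 83.2 CPM in the KAT6B knockout, 51.3, 48 and 36.2 CPM in the KAT6A knockout and 52.7, 75.6 and 59.8 CPM in the double knockout. It was highest in the KAT6B knockout, by 1.28 ± 0.22 over the KAT6A knockout (adjusted p = 0.63, edgeR) and 0.81 over the double knockout (adjusted p = 0.807, edgeR) on the log2 scale. Pde1b was lowest there, at 12.5, 10.3 and 12.7 CPM in the KAT6B knockout, 18.3, 22.1 and 25.1 CPM in the KAT6A knockout and 18, 21.6 and 19.9 CPM in the double knockout. Neither was called. Zim1 overlapped in the 3 knockouts, at 3.32, 3.83 and 3.8 CPM in the KAT6B knockout, 2.88, 4.34 and 4.44 CPM in the KAT6A knockout and 3.58, 3.27 and 4.62 CPM in the double knockout.

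Over gene lists, against the KAT6A knockout the KAT6B knockout's median log2 fold change was -0.79 for radial glia, -0.81 for proneural, -0.76 for pan-neuronal and 1.11 for mesenchyme genes, beside -0.01 over all genes. Against the double knockout these medians were 0.50, -0.09, -0.25 and 0.09, beside 0.00. Pan-neuronal sums were 3165, 480 and 1350 CPM in the KAT6B knockout, 1249, 2953 and 4026 CPM in the KAT6A knockout and 2700, 2557 and 569 CPM in the double knockout, so each knockout varied over 3-fold between its own libraries.

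Of the 15 genes, 1 was also called at an earlier day, Kdm1a at day 6. By edgeR the KAT6B knockout and E14 differed in 2 of 18935 genes at day 0 (0.0106%), 0 of 19594 at day 2 (796 at an unadjusted p under 0.05; DESeq2 was not run at this day) and 6 of 20533 at day 6 (0.0292%). Kdm1a was low throughout: 124, 148 and 121 CPM in the KAT6B knockout and 231, 243 and 180 CPM in E14 at day 0, then 137, 129 and 134 CPM in the KAT6B knockout and 204, 207 and 207 CPM in E14 at day 6 (-0.63, adjusted p = 0.0459, edgeR). The log2 fold changes at days 0, 2, 6 and 15 were -0.74, -0.79, -0.63 and -0.78.

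Sox2 had log2 fold changes of -0.37, -0.38, -0.94 and -2.67 at days 0, 2, 6 and 15. At day 6 it was at 50.7, 82.4 and 58.1 CPM in the KAT6B knockout, against 112, 148 and 106 CPM in E14, already separate (adjusted p = 0.106, edgeR). The change of the effect between days 6 and 15 was -1.76 for Sox2 (adjusted p = 0.0892, edgeR), and it was -2.40 for Lmx1b, -2.27 for Hopx, -2.06 for Nrarp and -1.42 for Paqr8. Lmx1b, Hopx and Nrarp overlapped E14 at day 6. Hopx was then at 2.43, 3.78 and 4.37 CPM in the KAT6B knockout and 5.52, 5 and 2.43 CPM in E14. At day 6 Myrf was at 170, 130 and 126 CPM in the KAT6B knockout, against 74.6, 79.1 and 99.9 CPM in E14, a log2 fold change of 0.75, beside 0.14 and -0.47 at days 0 and 2. At that day Tgfbr2 was at 23.9, 24 and 26.4 CPM in the KAT6B knockout, against 14.8, 11.2 and 20.9 CPM in E14 (0.66). Zim1 was separate from E14 at day 6 too, at 4.32, 8.72 and 7.29 CPM in the KAT6B knockout, against 15.4, 21.3 and 20.9 CPM in E14 (-1.50, adjusted p = 0.0743, edgeR).

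Tested for all genes, the change of the KAT6B knockout effect between days 6 and 15 gave 0 calls of 20898 with edgeR (2841, or 13.6%, at an unadjusted p under 0.05), where DESeq2 called 906 (4.34%). Without KAT6B knockout replicate 1 of day 15, edgeR called 1287. Median log2 fold changes at day 6 were -0.74 for radial glia, -1.20 for proneural, -0.83 for pan-neuronal and 0.61 for mesenchyme genes, beside -0.01 for all genes. At day 0 they were 0.09 for radial glia and 0.14 for proneural genes.

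**Figure D5:**
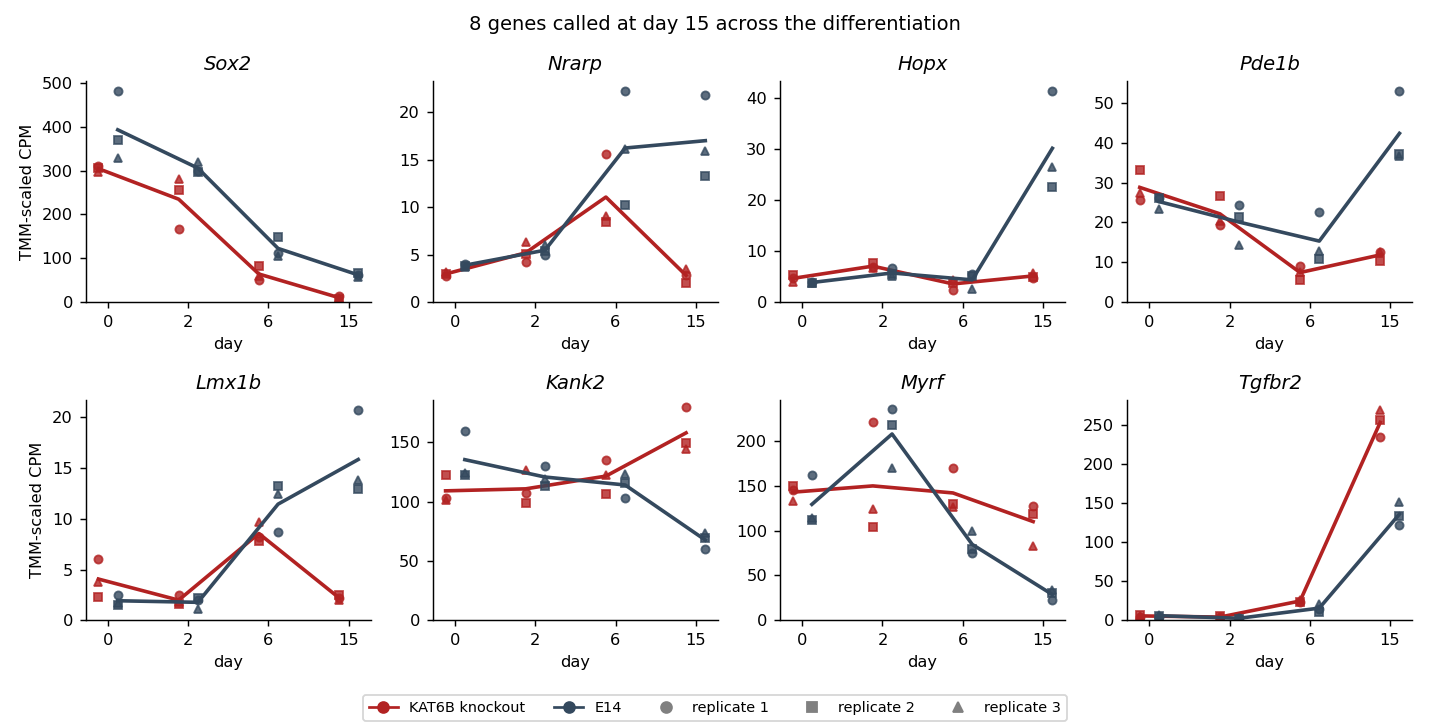
Level of 8 called genes in the KAT6B knockout and E14 at days 0, 2, 6 and 15 (CPM, from 0); points are libraries and lines join group means. Hopx, Lmx1b and Nrarp overlap at day 6 and are separate at day 15, when Hopx is at 4.71 to 5.62 CPM in the KAT6B knockout and 22.6 to 41.4 CPM in E14.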

How the data were processed

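The authors deposited 1 table of raw counts per gene, as whole numbers; per the submitters' processing notes, reads were aligned with HISAT2 to GRCm39, while the sources used here name no counting program, annotation or strand setting. The libraries, per the labels, were rRNA-depleted, directional and read as paired ends. Of 36983 entries, the 48 that repeat an identifier were left out. Counts of the 12 day-15 libraries were fitted together in edgeR 4.0.16 (R 4.3.3): genes passing its filter (minimum count 10, total 15), trimmed-mean (TMM) scaling, robust quasi-likelihood F tests with 8 residual degrees of freedom, Benjamini-Hochberg adjustment over 20225 genes, calls at 0.05. Log2 values use a prior count of 2. The effect at days 6 and 15 was compared in the 12 libraries of both genotypes at those days.

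A gene was called separate from E14 where all 3 KAT6B knockout libraries lay on 1 side of all 3 E14 libraries. Named genes were up to 12 per direction (called, then lowest p, mean of at least 5 CPM, groups separate) and per list the called members or the 2 with the highest mean. The comparison and the 45 lists (772 genes, 710 tested) were chosen with earlier results of these data known. Some genes, such as Olig2, Reln and Sox10, are in more than 1 list, so counts of different lists are not independent. No source says that replicates came from separate clones, so p-values measure the spread between the differentiation experiments. Replicate numbers were checked for pairing: deviations of same-numbered KAT6B knockout and E14 libraries correlated at 0.524, 0.545 and -0.405. Between replicate 1 of 1 group and replicate 2 of the other they correlated at -0.595 and -0.646. With 3 replicates a group this cannot exclude pairing. The main fit did not pair the libraries, and the fit with a replicate term is given beside it. Alternatives were relative log expression (RLE) scaling, other filters, DESeq2 1.42.0, fits of all 48 or of 6 libraries, a replicate term and leaving out each library. Promoter windows are from RefSeq GRCm38.p6. Some members of the lists are not reported here by name, and list counts include them.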

Additional observations from a re-analysis of the deposited data

Results flagged for a closer look

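Plxna1, a receptor of semaphorin guidance cues, differed between days. At day 15 it was at 568, 548 and 581 CPM in the KAT6B knockout, against 427, 450 and 432 CPM in E14 (log2 fold change 0.37 ± 0.10, adjusted p = 0.0928, edgeR). At day 6 it was at 310, 270 and 319 CPM in the KAT6B knockout, against 347, 357 and 330 CPM in E14 (-0.20 ± 0.13, adjusted p = 0.549, edgeR). The libraries did not overlap on either day and lay on opposite sides of E14. That was the rule by which Plxna1 was picked from the named and called genes, so it is not a finding. The change of the effect was 0.5725 on the log2 scale (adjusted p = 0.148, edgeR), which does not pass over all genes. The groups of 3 were not tested for single outlying libraries.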

How the results depend on the processing

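KAT6B knockout against E14, day 15, gave 15 calls, and all 15 were among those of the 1 CPM filter (90), DESeq2 (1839) and all 48 libraries in 1 fit (3185). With RLE size factors 14 genes were called and with no filter 16. Only the 6 libraries compared gave 0 calls (3898 at an unadjusted p under 0.05) and the replicate block 0 (3762). Leaving out 1 library gave 0 to 1946. No call held in all 13 alternatives, and no called gene changed direction in any. KAT6B knockout against KAT6A knockout, day 15, gave 33 with DESeq2 and 56 with all 48 libraries, and KAT6B knockout against double knockout, day 15, 77 and 89; the replicate block left both at 0. Change of the KAT6B knockout effect between days 6 and 15 gave 1 with RLE size factors, 1 with no filter, 906 with DESeq2, 646 with 48 libraries, 61 with the replicate block and 0 to 1287 leaving out 1 library. Kat6b level was 0.0003449 with the 6 libraries alone and -0.37 to 0.091 leaving out 1. The cause was not tested.

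Over 1300 pairs of a named gene and an alternative, 1084 kept direction and call, 87 gained a call, 98 lost it and 31, of 17 genes, changed direction; none of these 17 was called. Pcdhgc3 was -0.0060 with RLE size factors and -0.0060 with DESeq2. Klf5 was 0.00856 with 48 libraries and 0.059 with 6, and Top2a 0.041 with 6. Leaving out 1 library, log2 fold changes ran from -0.99 to 0.43 for Aqp1, -1.01 to 1.34 for Boc, -0.50 to 0.26 for Clic6, -0.83 to 0.065 for Clu, -0.0079 to 0.82 for Col4a1, -0.49 to 0.038 for Glul, -0.38 to 0.40 for Jun, -0.28 to 0.30 for Klf5, -0.046 to 0.67 for Lrp2, -0.24 to 0.11 for Mki67, -2.06 to 0.085 for Ntrk3, -0.35 to 0.24 for Pcdhgc3, -0.52 to 0.056 for Pcdhgc4, -0.084 to 0.58 for Rec8, -0.31 to 0.16 for Runx1, -0.22 to 0.17 for Top2a and -0.18 to 0.78 for Wnt5a. A fold change of 1 gene is limited by the spread between libraries of either group and, for genes of few reads such as Angptl7 in E14, by depth.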

Other observations

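By chromosome, the median log2 fold change at day 15 was highest on chromosome 11 among the autosomes, at 0.204 over 1502 genes, where it was 0.041, 0.103 and -0.021 at days 0, 2 and 6. On chromosome 8 it was 0.0012 at day 15, beside -0.149, -0.101 and -0.147 at days 0, 2 and 6. Over the 12 mitochondrial genes tested it was -0.348 at day 15, beside 0.558, 0.219 and 0.569 at the earlier days. The mitochondrial share of counts at day 15 was 0.617% in KAT6B knockout replicate 1 and 1.29% and 1.32% in the other KAT6B knockout libraries, against 1.24% to 1.55% in E14, so the day-15 value moves with 1 library. Single libraries stood apart earlier too. At day 0 E14 replicate 1 was at 0.539%, against 1.51% and 0.948% in the other E14 libraries. At day 6 KAT6B knockout replicate 2 was at 2.05%, against 0.846% and 1.21% in the other KAT6B knockout libraries.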
